A study of Mus musculus with 12 samples.

Results

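The levels of 9 podocyte genes were followed through sorted glomerular cells of wild type and Alport mice. The genes were Nphs1, Podxl, Synpo, Wt1, Ptpro, Cdkn1c, Clic3, Npnt and Thsd7a, taken by their symbols from the deposited count table of each sorted subpopulation. All 9 were present in both tables, which list 17811 genes for the dim and 17521 for the bright subpopulation, 15768 of them in both. None of the 9 was lost to the filter on low counts in any comparison, so every number of genes below is out of all 9.

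The samples were RNA-seq libraries of tdTomato-positive (tdT) cells from isolated glomeruli of 4 month old C57BL/6 mice carrying the TekCre tdTomato reporter, in which Tek-Cre, active in endothelial cells and also in blood cells of the same lineage, switches on tdTomato from the ROSA26 locus. Flow sorting on the tdT signal gave a dim tdT and a bright tdT subpopulation, both labelled as glomerular endothelial cells (GEC). The markers of the dim libraries go against that name, as given below, and they are called dim tdT cells here. WT mice were wild type for Col4a5 and AS mice were Col4a5 -/-, a model of Alport syndrome, and both genotypes carried the reporter. There were 3 mice of each genotype with 1 dim and 1 bright library per mouse, which gave 12 libraries in 4 groups of 3. Reads were counted per gene, and levels are given as CPM, the counts of a gene per 1000000 counts of its library after TMM scaling over the 12 libraries. Differences are log2 fold changes with their standard error (SE) from edgeR's quasi-likelihood test, with p adjusted over all genes tested by Benjamini-Hochberg and a threshold of 0.05.

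Podocytes are the epithelial cells that wrap the glomerular capillaries from the urinary side. Their foot processes interlock and are bridged by the slit diaphragm, and together with the endothelium they lay down the glomerular basement membrane, whose mature collagen IV network holds the chains encoded by Col4a3, Col4a4 and Col4a5. Podocytes are not expected to carry a Tek-Cre reporter. In pooled cells of a sort, fewer cells of a type and less RNA per cell cannot be told apart.

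The genes cover different parts of the cell. Nphs1 encodes nephrin, the adhesion protein that forms the slit diaphragm. Podxl encodes podocalyxin, the negatively charged sialomucin of the foot process surface, which endothelial cells make as well. Ptpro encodes GLEPP1, a receptor tyrosine phosphatase of the apical membrane, and a shorter product of the same gene is known from leukocytes. Synpo encodes synaptopodin, an actin-associated protein of the foot processes. Wt1 is a zinc finger transcription factor needed to form and keep podocytes, and Cdkn1c encodes p57, a cyclin-dependent kinase inhibitor of mature podocytes. Npnt encodes nephronectin, a matrix ligand of integrin alpha8 beta1 deposited in the basement membrane, Thsd7a a membrane protein known as a target antigen in membranous nephropathy, and Clic3 an intracellular chloride channel family protein.

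On GRCm38 with the Gencode M21 annotation the genes, all protein-coding, were Nphs1 (ENSMUSG00000006649, chr7:30458315-30487223, plus strand), Podxl (ENSMUSG00000025608, chr6:31519488-31563981, minus strand), Wt1 (ENSMUSG00000016458, chr2:105126529-105173616, plus strand), Ptpro (ENSMUSG00000030223, chr6:137252319-137463233, plus strand), Cdkn1c (ENSMUSG00000037664, chr7:143458339-143461050, minus strand), Clic3 (ENSMUSG00000015093, chr2:25456838-25458776, plus strand), Npnt (ENSMUSG00000040998, chr3:132881745-132950291, minus strand) and Thsd7a (ENSMUSG00000032625, chr6:12311610-12749410, minus strand). Synpo (ENSMUSG00000043079) lies on the minus strand. Podxl, Synpo and Wt1 overlap no other annotated gene. Nphs1 is overlapped by the antisense gene Nphs1os and a pseudogene, Cdkn1c by an antisense gene, Clic3 by the protein-coding gene Paxx on the opposite strand, Npnt by a small RNA gene and Thsd7a by 3 noncoding genes on the opposite strand, while Ptpro holds a sense intronic gene. These overlaps are of whole gene spans with introns, and overlap of exons was not checked. The strand used for counting is not given in the sources used here either. Whether reads of these partners entered the counts of the podocyte genes is therefore not known.

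RefSeq's promoter windows of GRCm38.p6 were matched for 5 of the 9 genes. The 250 bases before the start that RefSeq gives are shown for Npnt, which was called lower in AS than in WT dim tdT cells, and for Ptpro, whose log2 fold change there was near 0. They lie at chr3:132950292-132950541 on the minus strand and at chr6:137252049-137252298 on the plus strand. RefSeq's start of Nphs1 lies downstream of the first base of the gene in Gencode, so that its window falls inside the gene and is not shown. Capitals mark matches to the letters GGAAGT, the core bound by ETS factors, here read on the opposite strand.
Npnt: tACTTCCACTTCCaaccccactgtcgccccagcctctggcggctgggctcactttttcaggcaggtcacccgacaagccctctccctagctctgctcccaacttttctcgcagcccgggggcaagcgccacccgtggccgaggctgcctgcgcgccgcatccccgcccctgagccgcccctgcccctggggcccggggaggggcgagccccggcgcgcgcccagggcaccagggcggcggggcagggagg
Ptpro: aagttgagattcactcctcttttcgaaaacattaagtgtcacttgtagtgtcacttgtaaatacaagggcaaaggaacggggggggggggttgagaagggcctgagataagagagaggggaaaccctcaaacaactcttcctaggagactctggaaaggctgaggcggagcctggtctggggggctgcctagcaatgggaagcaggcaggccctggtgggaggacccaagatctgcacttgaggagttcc

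Each window was searched on both strands for short motifs. GGAAGT was found in Npnt and Clic3 (2 of 5 windows, against 19.7% of all 32851 windows of the same length), at 249 and 243 bases before the start in Npnt. CAGCTG, an E-box bound by TCF21, was found in Thsd7a (1 of 5, against 13%). GCGNGGGNG for WT1 and EGR factors (10.5% of all windows), TAATTA for homeodomain factors (4.84%) and GTAAACA for forkhead factors (3.17%) were found in none of the 5. The Npnt window held 74.0% G and C and the Ptpro window 53.6%.

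The libraries held 11440169 to 15074909 counts on genes. The 9 genes rested on 14 to 16945 counts per library, with the lowest count for Clic3 in the AS-dim tdT cells and the highest for Podxl in the AS-bright tdT GEC. Col4a5, the mutated gene, had 67.6, 37.1 and 73.9 CPM in the WT-dim and 3.6, 1.99 and 1.36 CPM in the AS-dim libraries, lower in every AS library, with a log2 fold change of -4.69 (SE 0.45, adjusted p = 0.00982). In the bright libraries Col4a5 was low in both genotypes, 4.92 to 9.996 CPM in WT and 3.13 to 6.79 CPM in AS, and did not separate them. Tek, whose promoter drives the Cre, had 136 to 272 CPM in the WT-bright and 246 to 263 CPM in the AS-bright libraries, against 10.5 to 19.6 CPM in WT-dim and 2.31 to 3.04 CPM in AS-dim. The label of glomerular endothelial cells was met by the bright libraries, where 14 endothelial markers summed to 16228 to 24295 CPM in WT and 24150 to 32204 CPM in AS. The dim libraries did not meet it. There the same markers summed to 1370.4 to 1947 CPM in WT and 326 to 445 CPM in AS, below the 12 leukocyte markers, which summed to 4010.3 to 6603 CPM in WT and 8499.8 to 10474 CPM in AS.

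Podocyte genes were measured in all 4 groups, and the summed level of the 9 genes was 595 to 1048 CPM in the WT-dim, 448 to 475 CPM in the AS-dim, 942 to 1164 CPM in the WT-bright and 1278 to 1461 CPM in the AS-bright libraries. Podxl made up most of that sum in the bright libraries and Ptpro in the AS-dim libraries. Per kb of exon, Podxl stood first in WT-dim (48.5 ± 10.6 CPM per kb, SD, n = 3), WT-bright (169.7 ± 26.6) and AS-bright (201 ± 20.8), while Ptpro stood first in AS-dim (41.7 ± 4.36). Thsd7a had the lowest mean in every group, from 0.368 ± 0.0859 CPM per kb in AS-dim to 1.24 ± 0.333 in WT-dim.

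In the WT-dim group the order per kb was Podxl, Ptpro, Npnt, Wt1, Nphs1, Clic3, Cdkn1c, Synpo and Thsd7a. The libraries of neighbours in this order overlapped except between Npnt (28.1 ± 7.4 CPM per kb) and Wt1 (10.4 ± 4.52) and between Synpo (4.25 ± 1.63) and Thsd7a. In the AS-dim group Ptpro was followed by Podxl (13 ± 2.71), Npnt (8.12 ± 1.62), Cdkn1c (4.44 ± 0.543) and Nphs1 (2.76 ± 0.417), each apart from the next, while Nphs1, Wt1, Clic3 and Synpo overlapped from one to the next. In the bright groups Podxl lay far above the rest, ahead of Npnt in WT (10.8 ± 4.54 CPM per kb) and of Cdkn1c in AS (17.3 ± 5.37). Nphs1 was next to last in WT-bright (1.17 ± 0.232) and overlapped Thsd7a there.

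**Figure D1:**
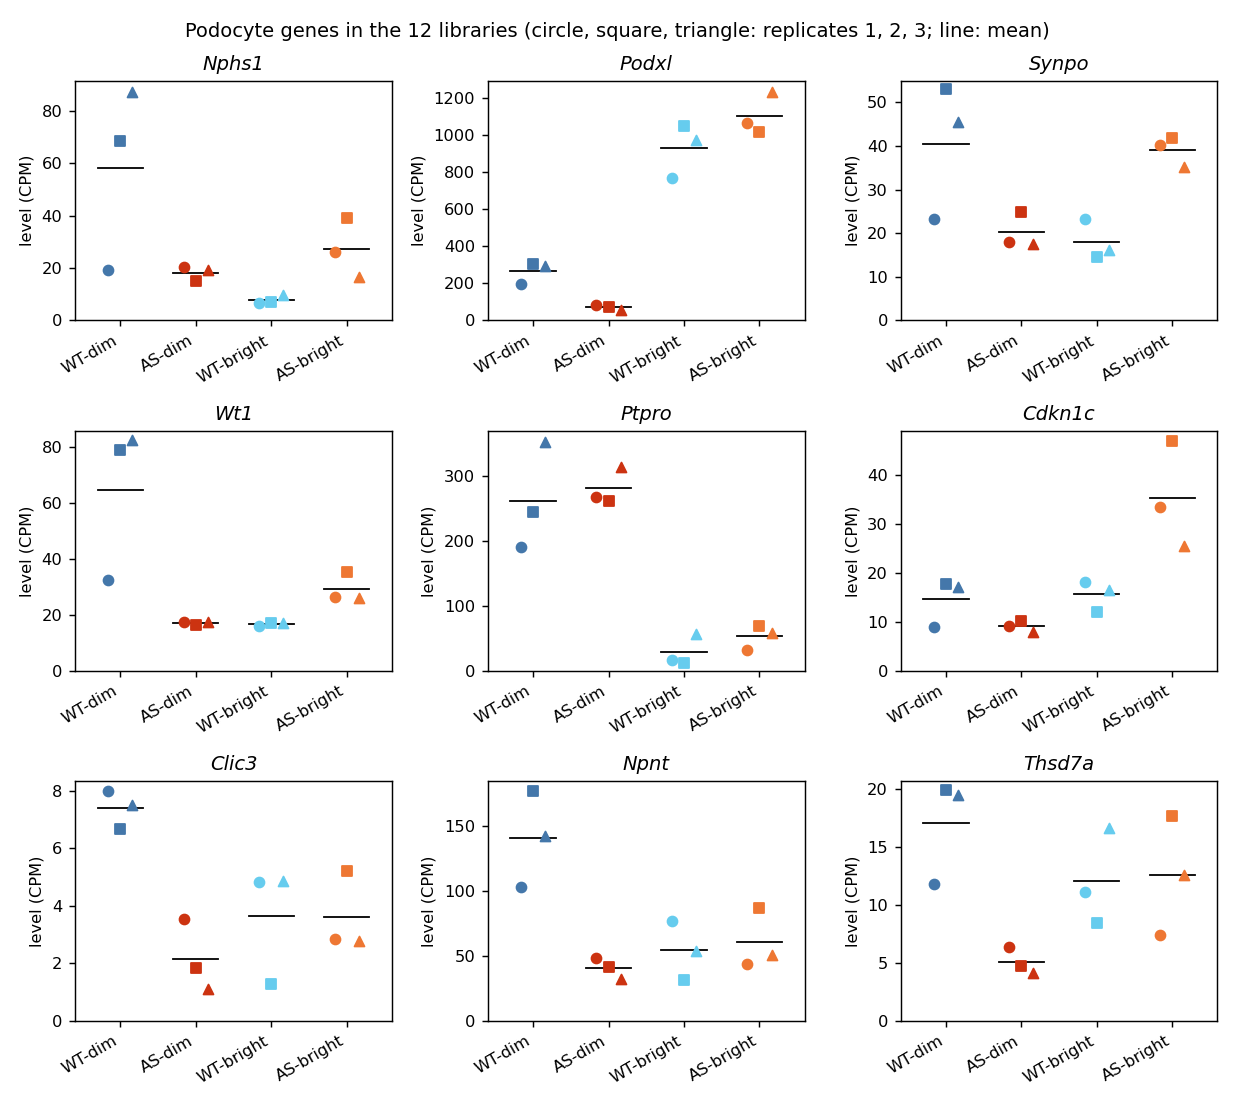
Level of each podocyte gene in CPM (vertical axis, linear, from 0) in the 4 groups, 1 point per library with the replicate as its shape and the group mean as a line. Nphs1 and Wt1 were highest in 2 of the 3 WT-dim libraries, Podxl in the bright and Ptpro in the dim libraries, and every WT-dim library lay above every AS-dim library for Podxl, Wt1, Clic3, Npnt and Thsd7a.

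Whether podocyte transcripts changed with the AS genotype was first asked in the dim tdT cells. Podxl, Wt1, Npnt and Thsd7a were lower in AS than in WT, by log2 fold changes between -1.78 and -1.95. That is 4 of 9 genes called lower and 0 called higher, against 8.63% of the 14637 genes tested that were called at all and 6.42% that were called lower. The median log2 fold change of the 9 genes was -1.78, and that of all genes was -0.02. The AS and WT libraries did not overlap, with AS lower, for 5 of the 9 genes, against 15.5% of all genes tested.

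Of the surface and matrix genes, Podxl had 199, 304 and 295 CPM in the 3 WT-dim and 84.8, 73.3 and 55.2 CPM in the 3 AS-dim libraries. All AS libraries lay below all WT libraries, with a log2 fold change of -1.93 (SE 0.25, adjusted p = 0.0169) or 3.82-fold lower. Npnt had 103, 178 and 143 CPM in WT and 48.4, 41.8 and 32.2 CPM in AS, again without overlap, and a log2 fold change of -1.82 (SE 0.27, adjusted p = 0.0194) or 3.53-fold lower. Thsd7a went from 11.8, 19.9 and 19.5 CPM in WT to 6.36, 4.72 and 4.07 CPM in AS, a log2 fold change of -1.78 (SE 0.39, adjusted p = 0.034) or 3.42-fold lower. Ptpro, the other membrane protein, had 189, 243 and 351 CPM in WT and 266, 260.4 and 314 CPM in AS. Its groups overlapped, and its log2 fold change of 0.07 (SE 0.24, adjusted p = 0.882) did not pass and took the opposite sign, down to -0.11, when single libraries were left out.

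Of the nuclear genes, Wt1 had 32.3, 79 and 82.3 CPM in the WT-dim and 17.4, 16.3 and 17.5 CPM in the AS-dim libraries. The AS libraries lay close together below all WT libraries, and the log2 fold change was -1.95 (SE 0.37, adjusted p = 0.0243) or 3.86-fold lower. Cdkn1c had 8.95, 17.7 and 17.1 CPM in WT and 9.12, 10.1 and 7.9 CPM in AS. The lowest WT library lay among the AS libraries, and the log2 fold change of -0.72 (SE 0.38, adjusted p = 0.272) did not pass.

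Nphs1, Synpo and Clic3 did not pass by the quasi-likelihood test, and other tools called them. Nphs1 had 19.3, 68.4 and 87.3 CPM in WT and 20.4, 15.2 and 19.2 CPM in AS, where WT replicate 1 lay within the AS range and the other 2 WT libraries far above it. Its log2 fold change was -1.70 (SE 0.49, adjusted p = 0.0692), and without WT-dim replicate 1 it was -2.11 with an adjusted p of 0.0204. Synpo had 23.2, 53 and 45.5 CPM in WT and 18, 24.9 and 17.6 CPM in AS, with the same library low, and a log2 fold change of -1.04 (SE 0.35, adjusted p = 0.104). Clic3 had 7.98, 6.68 and 7.5 CPM in WT and 3.53, 1.82 and 1.12 CPM in AS, without overlap, and a log2 fold change of -1.78 (SE 0.50, adjusted p = 0.0639). DESeq2, which called 15.1% of all genes, called all 3 (adjusted p of 0.00849 for Nphs1, 0.0476 for Synpo and 0.0191 for Clic3). The likelihood ratio test, which called 13.3%, called Nphs1 (0.0202) and Clic3 (0.0314), as did the fit of all 12 libraries (0.0295 and 0.045), and Synpo also passed without WT-dim replicate 1 (0.0429). Over the 8 genes other than Ptpro, WT-dim replicate 1 lay on average 0.593 below its group mean on the log2 scale.

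The calls in the dim tdT cells depended on single libraries, for all genes as for the podocyte genes. Without AS-dim replicate 1, and likewise without AS-dim replicate 3, 0 of the 9 genes passed, and Podxl had log2 fold changes of -2.11 and -1.77 with adjusted p of 0.113 and 0.107. Of all genes, the 1263 called were 0 and 1 in these fits. Without AS-dim replicate 2 or WT-dim replicate 2, 2 of the 9 passed, with 484 and 800 of all genes. Wt1 and Thsd7a were the calls lost in both fits, and they were also lost with the replicate block. Each of them passed in 9 of 14 alternatives, and Podxl and Npnt each passed in 12 of 14. Without WT-dim replicate 1, 6 of the 9 passed, with 786 of all genes.

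Markers of other cells moved in the same comparison. Of 13 endothelial markers tested 9 were called lower in AS-dim and 0 higher (median log2 fold change -2.21), of 10 proximal tubule markers 5 lower (median -4.25) and of 5 markers of the loop of Henle, distal tubule and collecting duct 4 lower (median -2.96). Of 12 leukocyte markers 3 were called higher and 0 lower (median 0.40), and of 8 mesangial and mural markers 0 were called (median -1.01), with 3 at an unadjusted p under 0.05 (26.3% of all genes) and 0 with DESeq2 and with the likelihood ratio test. The proximal tubule markers summed to 1512 to 6861 CPM in the WT-dim and 15.2 to 419.7 CPM in the AS-dim libraries, with the defining marker Lrp2 at 446, 170.3 and 209 CPM in WT and 4.24, 39 and 1.6 CPM in AS. Umod, the defining marker of the loop of Henle, had 112 to 205 CPM in WT and 1.2 to 26.9 CPM in AS, and the endothelial marker Pecam1 50.8 to 99.1 and 33.4 to 53.4 CPM. The highest Lrp2 was in WT-dim replicate 1, the library with the lowest Nphs1 of its group. The defining leukocyte marker Ptprc had 698, 838 and 1122 CPM in WT and 1364, 1305 and 1447 CPM in AS. The part of these lists in the lower levels of the podocyte genes was not tested.

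**Figure D2:**
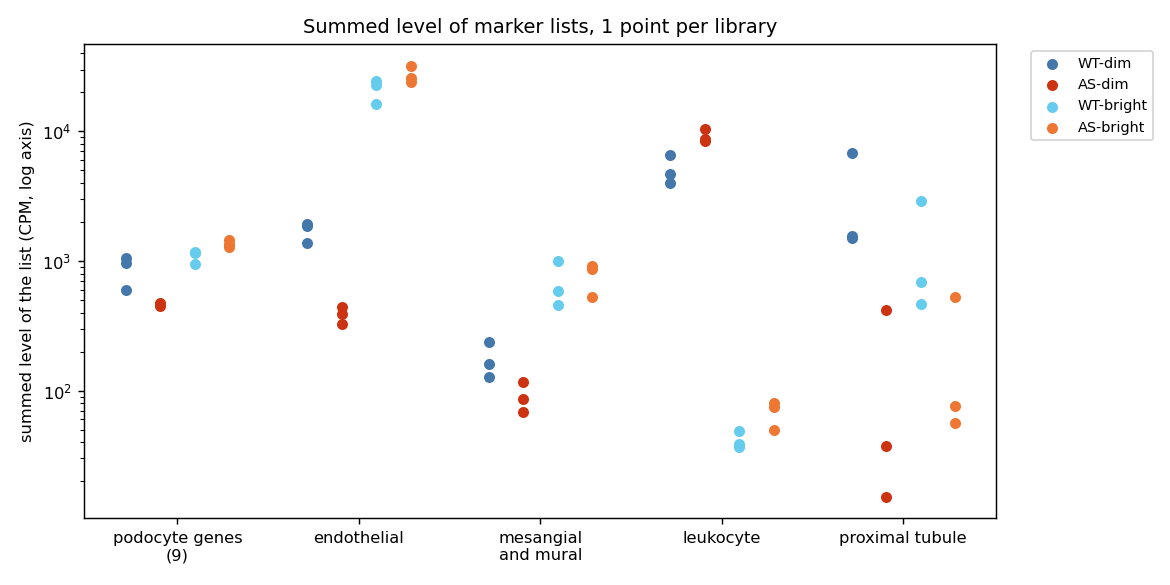
Summed level of each marker list in CPM (vertical axis, logarithmic), 1 point per library, coloured by group, with the number of podocyte genes in brackets. The podocyte genes sat at 448 to 475 CPM in AS-dim, below the 595 to 1048 CPM of WT-dim, and the endothelial and proximal tubule sums were also lower in AS-dim, while the leukocyte sum was higher.

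In the bright tdT GEC none of the 9 genes passed the threshold between AS and WT. Here 0.452% of the 14396 genes tested were called, so that few calls of any kind were made, while 3145 genes (21.8%) and 4 of the 9 had an unadjusted p under the threshold. DESeq2 and edgeR's likelihood ratio test each called 3 of the 9, against 7.76% and 5.74% of all genes. The median log2 fold change of the 9 genes was 0.74, and that of all genes was -0.03. The AS and WT libraries did not overlap, with AS higher, for Nphs1, Synpo, Wt1 and Cdkn1c, which is 4 of the 9 genes against 15.6% of all genes tested.

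Nphs1 had 6.83, 6.91 and 9.54 CPM in the 3 WT-bright and 26, 39 and 16.5 CPM in the 3 AS-bright libraries. Every AS library was higher than every WT library, and the log2 fold change was 1.74 (SE 0.38, adjusted p = 0.0592). Synpo had 23.2, 14.6 and 16.1 CPM in WT and 40.3, 41.8 and 35.2 CPM in AS, also without overlap, and a log2 fold change of 1.04 (SE 0.28, adjusted p = 0.0847). Cdkn1c had 18.2, 12 and 16.6 CPM in WT and 33.4, 47.1 and 25.5 CPM in AS, a log2 fold change of 1.10 (SE 0.32, adjusted p = 0.0998). Synpo passed without WT-bright replicate 1 (adjusted p = 0.0427). Nphs1, Synpo and Cdkn1c passed with DESeq2 (adjusted p of 0.000582, 0.0144 and 0.024) and with edgeR's likelihood ratio test (0.00348, 0.0315 and 0.0452). Wt1 had 15.9, 17.2 and 16.8 CPM in WT and 26.4, 35.2 and 25.8 CPM in AS, a log2 fold change of 0.74 (SE 0.26, adjusted p = 0.148) that passed in none of the alternatives tried.

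The other genes did not separate the genotypes in the bright tdT GEC. Podxl had 768, 1051 and 974 CPM in WT and 1065, 1016 and 1234 CPM in AS, with overlapping groups and a log2 fold change of 0.18 (SE 0.20, adjusted p = 0.647). Ptpro had 16.4, 11.4 and 55.6 CPM in WT and 32.3, 68.4 and 57.6 CPM in AS, where WT replicate 3 stood with the AS libraries, and a log2 fold change of 0.85 (SE 0.52, adjusted p = 0.366). Npnt, Thsd7a and Clic3 had log2 fold changes of 0.08, -0.01 and -0.10 with SEs of 0.37, 0.40 and 0.55, and adjusted p of 0.923, 0.989 and 0.938. Npnt had 31.6 to 77.3 CPM in WT and 44.2 to 87.1 CPM in AS, Thsd7a 8.41 to 16.6 and 7.36 to 17.7, and Clic3 1.28 to 4.87 and 2.77 to 5.22, all overlapping. The sign of these last 3 turned when single libraries were left out.

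No marker of the endothelial, tubule and leukocyte lists was called between the genotypes in the bright tdT GEC by the quasi-likelihood test. All 10 proximal tubule markers tested had log2 fold changes below 0 (median -2.66, 8 with an unadjusted p under 0.05 and 0 called by DESeq2 or the likelihood ratio test), and they summed to 466 to 2907 CPM in WT and 56.1 to 531 CPM in AS. All 6 markers of the loop of Henle, distal tubule and collecting duct lay below 0 (median -2.16, 4 unadjusted, and 2 called by each of these tools), with sums of 358 to 512 CPM in WT and 22.1 to 214 CPM in AS. Of 14 endothelial markers 12 lay above 0 (median 0.42, 5 unadjusted, and 1 called by each tool), and of 5 leukocyte markers tested 4 did (median 0.49, 1 unadjusted, and 0 called by either tool). The part of these lists in the values of the podocyte genes was not tested.

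**Figure D3:**
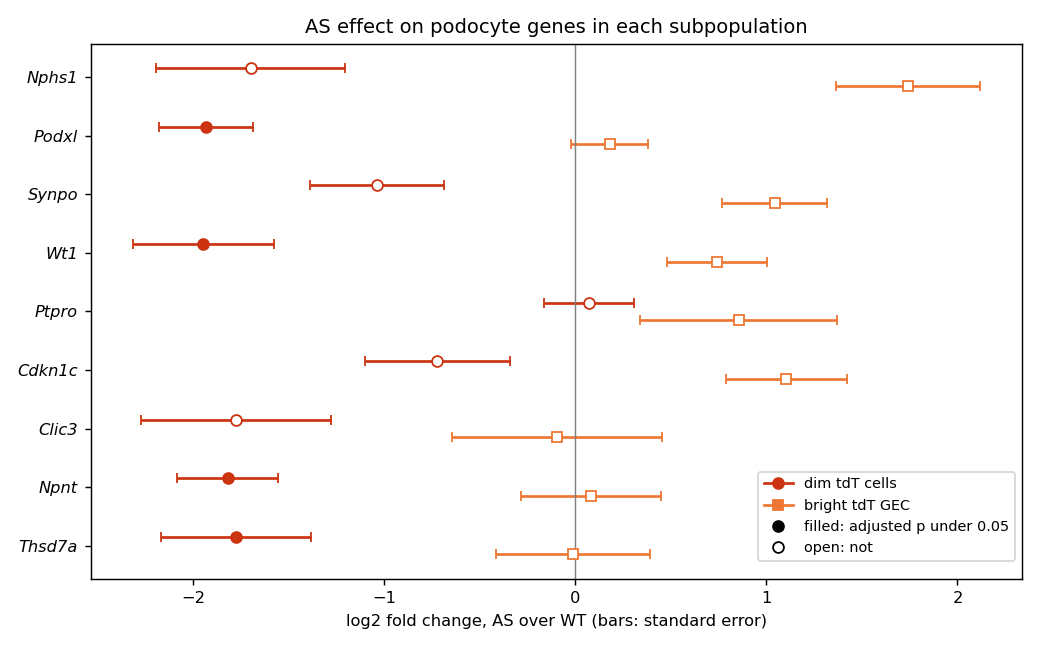
Log2 fold change of AS over WT (horizontal axis) for each podocyte gene in the dim tdT cells (circles) and bright tdT GEC (squares), with the standard error as bars and filled symbols for an adjusted p under 0.05. Of the 9 genes, 8 lay below 0 in the dim tdT cells and 7 above 0 in the bright tdT GEC, with filled symbols for Podxl, Wt1, Npnt and Thsd7a in the dim tdT cells.

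The AS effect itself was then compared between the subpopulations, by taking the log2 AS to WT ratio of the bright tdT GEC less that of the dim tdT cells, in 1 fit of the 12 libraries that the comparisons above also use. It was above 0 for all 9 genes and passed for 6 of them, where 3.77% of the 15084 genes tested were called and 2.96% were called above 0. All genes together had a median difference of 0.13 (-0.03 when libraries were scaled by their totals alone), and the 9 genes one of 1.95. The difference was 3.48 (SE 0.67, adjusted p = 0.0129) for Nphs1, 2.73 (SE 0.45, adjusted p = 0.00617) for Wt1 and 2.15 (SE 0.32, adjusted p = 0.00432) for Podxl, which passed in all 19 alternatives tried. For Synpo it was 2.13 (SE 0.45, adjusted p = 0.0193), which passed in 14 of 19. The calls of Npnt (1.95, SE 0.49, adjusted p = 0.0431) and Cdkn1c (1.87, SE 0.48, adjusted p = 0.0467) passed in 5 and 4 of 19 and were lost with RLE scaling (adjusted p of 0.0548 and 0.0557), with library sizes alone (0.0881 and 0.089) and with the mouse as a replicate block (0.0552 and 0.0514).

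Thsd7a (1.80, SE 0.57, adjusted p = 0.1), Clic3 (1.72, SE 0.74, adjusted p = 0.233) and Ptpro (0.82, SE 0.66, adjusted p = 0.551) did not pass, which does not show that their AS effect was the same in both subpopulations, and DESeq2 called Thsd7a (adjusted p = 0.0451). The number of podocyte genes called fell from 6 to 3 when WT-bright replicate 3, AS-dim replicate 1, AS-dim replicate 3, AS-bright replicate 1 or AS-bright replicate 2 was left out, where the 569 called of all genes were 372, 308, 344, 252 and 422. The endothelial markers differed in the same direction, with 10 of 14 called above 0 and a median difference of 2.59. Of 10 proximal tubule markers 1 was called and of 9 mesangial and mural markers 0 were (2 at an unadjusted p under 0.05, against 18.5% of all genes, and 0 with DESeq2 and with the likelihood ratio test), with medians of 1.61 and 1.29. Their part in the difference of the podocyte genes was not tested.

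In WT mice the 2 subpopulations were compared to ask which of them held more podocyte transcript. Nphs1, Wt1, Ptpro and Npnt were lower in the bright tdT GEC than in the dim tdT cells and Podxl was higher, so that 5 of 9 genes passed, 1 higher and 4 lower. Over the 14247 genes tested, 25.3% were called, 13.8% higher and 11.5% lower. The log2 fold changes of bright over dim were -2.87 (SE 0.55, adjusted p = 0.00494) for Nphs1, -1.91 (SE 0.40, adjusted p = 0.00729) for Wt1 and -3.19 (SE 0.57, adjusted p = 0.0035) for Ptpro. Npnt had -1.32 (SE 0.38, adjusted p = 0.0307), a call that 4 of the 6 fits without 1 library lost (WT-dim replicates 2 and 3 and WT-bright replicates 2 and 3, adjusted p from 0.0682 to 0.101). Podxl had 1.85 (SE 0.26, adjusted p = 0.000877), with 3.6-fold more in the bright tdT GEC.

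Synpo (-1.12, SE 0.40, adjusted p = 0.0719), Clic3 (-0.94, SE 0.55, adjusted p = 0.245), Thsd7a (-0.45, SE 0.42, adjusted p = 0.469) and Cdkn1c (0.15, SE 0.42, adjusted p = 0.827) did not pass in WT mice by the quasi-likelihood test. Synpo passed with DESeq2 (adjusted p = 0.0296), with all 12 libraries in 1 fit (0.0113) and without WT-dim replicate 1 (0.0222). Within single WT mice the bright library minus the dim library of the same mouse was -1.50, -3.31 and -3.19 on the log2 scale for Nphs1 and -1.02, -2.20 and -2.29 for Wt1, in the order of replicates 1, 2 and 3. All 3 mice had lower values in the bright library, and replicate 1 had the smallest gap. For Ptpro the differences were -3.53, -4.42 and -2.66, and for Podxl they were 1.95, 1.79 and 1.73.

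In AS mice most of the podocyte genes that passed were higher in the bright tdT GEC than in the dim tdT cells. Podxl, Cdkn1c, Thsd7a, Synpo and Wt1 passed as higher and Ptpro as lower, which is 6 of 9 genes. The background was high in this comparison, where 55.1% of the 14052 genes tested were called, 28.6% higher and 26.5% lower, so that the number called is close to that share. The log2 fold changes were 3.95 (SE 0.22, adjusted p = 2.33e-07) for Podxl, 1.96 (SE 0.29, adjusted p = 0.000263) for Cdkn1c, 0.95 (SE 0.22, adjusted p = 0.00469) for Synpo and -2.41 (SE 0.27, adjusted p = 3.37e-05) for Ptpro. Thsd7a had 1.30 (SE 0.39, adjusted p = 0.0164), a call lost without AS-dim replicate 3 or AS-bright replicate 2 (adjusted p of 0.0545 and 0.0745), and Wt1 had 0.77 (SE 0.23, adjusted p = 0.0157), a call lost without AS-dim replicate 2 or AS-bright replicate 2 (0.0521 and 0.0661) and with all 12 libraries in 1 fit (0.0673). Nphs1 (0.57, SE 0.32, adjusted p = 0.159), Npnt (0.57, SE 0.28, adjusted p = 0.115) and Clic3 (0.72, SE 0.49, adjusted p = 0.238) did not pass, and Nphs1 passed without AS-bright replicate 3 (adjusted p = 0.0392).

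The dim and bright libraries of a mouse could be set side by side. Bright minus dim was 0.35, 1.36 and -0.23 on the log2 scale for Nphs1 in the AS mice and 0.60, 1.11 and 0.56 for Wt1. For Podxl it was 3.65, 3.79 and 4.48. For 8 of the 9 genes every AS mouse had a higher difference than every WT mouse, against 14.5% of the 15084 genes tested, and the exception was Ptpro, with -3.04, -1.93 and -2.45 in the AS mice. These differences draw on the same libraries as the comparison of the AS effect above.

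**Figure D4:**
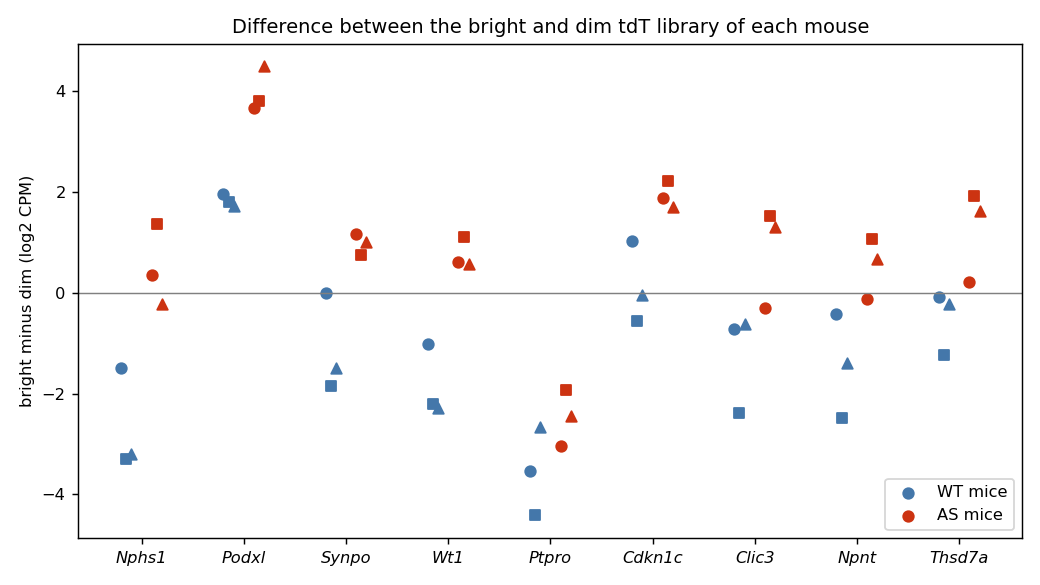
Level of each podocyte gene in the bright tdT library minus that in the dim tdT library of the same mouse (vertical axis, log2 CPM), 1 point per mouse, blue for WT and red for AS, with the replicate as its shape. The AS mice lay above the WT mice for every gene but Ptpro, whose differences were negative in all 6 mice, and Podxl was positive in all 6.

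Leukocyte markers moved with Ptpro between the subpopulations. The bright table holds 8 of the 12 leukocyte markers. All 8 were called lower in the bright tdT GEC than in the dim tdT cells in WT (median log2 fold change -7.97) and in AS mice (median -7.41), and the 8 summed to 37.1 to 48.5 CPM in WT-bright and 49.8 to 80.3 CPM in AS-bright. Ptprc was at no more than 8.09 CPM in any bright library. All 14 endothelial markers were called higher in both genotypes, with medians of 3.63 in WT and 6.29 in AS, which was also the direction of Podxl. The mesangial marker Pdgfrb had 9.36 to 17.9 CPM in WT-dim and 9.42 to 17 CPM in AS-dim against 51.8 to 95.5 CPM in WT-bright and 75.3 to 200.3 CPM in AS-bright. The part of these cells in the levels of Ptpro and Podxl was not tested.

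A further 59 podocyte genes, in lists of the slit diaphragm, foot process cytoskeleton, transcription factors, surface, and matrix and secreted proteins, were examined in the same fits. In the dim tdT cells 16 of 55 tested were called lower in AS and 1 higher, with a median log2 fold change of -1.30, where 6.42% of all genes tested were called lower and 8.63% in either direction. The lists went from 3 of 13 lower for the slit diaphragm (median -1.21) and 4 of 16 for the cytoskeleton (median -0.68) to 2 of 7 for the transcription factors (median -1.59), 4 of 10 for the surface (median -1.40) and 3 of 9 for matrix and secreted proteins (median -1.50). Magi1, a scaffold protein of cell junctions (-3.09, SE 0.83, adjusted p = 0.0424), Foxc2, a forkhead transcription factor (-2.85, SE 0.55, adjusted p = 0.0251), and Slc9a3r2, a scaffold that binds podocalyxin (-2.71, SE 0.33, adjusted p = 0.0149), had the lowest values.

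The collagen IV partners of Col4a5 were lower in the AS-dim libraries as well, with log2 fold changes of -1.86 (SE 0.25, adjusted p = 0.0172) for Col4a3 and -2.35 (SE 0.29, adjusted p = 0.0166) for Col4a4. Col4a3 had 54.6, 59 and 45.3 CPM in the WT-dim and 14.3, 16.4 and 14.1 CPM in the AS-dim libraries, and Col4a4 had 179, 227 and 238 CPM in WT and 44.6, 57.7 and 26.8 CPM in AS.

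**Figure D5:**
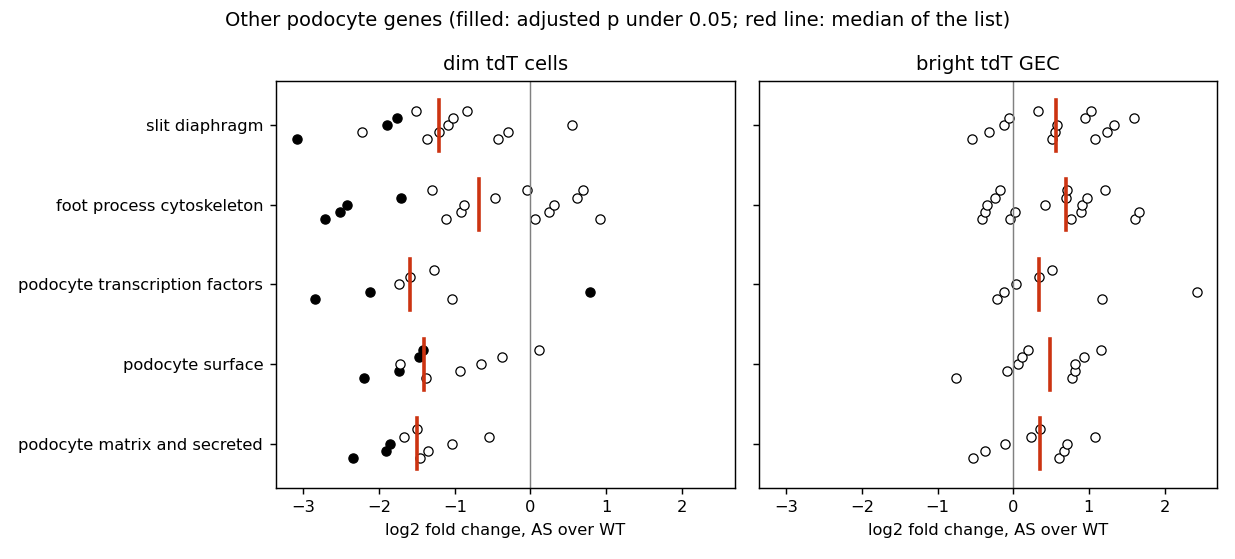
Log2 fold change of AS over WT (horizontal axis) for the genes of 5 further podocyte lists (rows, points spread vertically for legibility) in the dim tdT cells (left) and bright tdT GEC (right), filled for an adjusted p under 0.05, with the list's median as a red line. Medians lay between -1.59 and -0.68 on the left, where 17 genes are filled, and between 0.35 and 0.70 on the right, where none is.

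In the bright tdT GEC 0 of 57 of these genes were called between AS and WT by the quasi-likelihood test, with a median log2 fold change of 0.52. At an unadjusted p under 0.05 there were 22, against 21.8% of all genes. DESeq2 called 6 and the likelihood ratio test 3, against 7.76% and 5.74% of all genes, and the quasi-likelihood test called 0.452% of them. Col4a3 and Col4a4 had 0.36 and -0.11 (adjusted p = 0.585 and 0.857). The AS effect differed between the subpopulations for 13 of 56 genes, all 13 with the bright above the dim value (median 1.98), where 2.96% of all genes tested were called above 0 and their median was 0.13. Among the highest of these were Enpep, which encodes aminopeptidase A (3.07, SE 0.65, adjusted p = 0.0201), and Slc9a3r2 (2.77, SE 0.35, adjusted p = 0.00348). Col4a3 (2.25, SE 0.44, adjusted p = 0.0133) and Col4a4 (2.28, SE 0.42, adjusted p = 0.0107) passed.

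Between the subpopulations of WT mice the further podocyte genes were split, with 15 of 54 called higher and 13 lower in the bright tdT GEC (median -0.19), against 13.8% and 11.5% of all genes tested. Slc9a3r2 (3.43, adjusted p = 9.77e-05), Magi1 (2.87, 0.00335) and Pla2r1, the phospholipase A2 receptor (2.79, 0.0166), had the highest log2 fold changes, and Ezr, which encodes ezrin (-3.24, 0.000183), Rhpn1, rhophilin (-2.41, 0.015), and Plce1, phospholipase C epsilon (-2.30, 0.0349), the lowest. Col4a3 and Col4a4 were lower, at -1.27 and -1.36 (adjusted p = 0.0131 and 0.00384). In AS mice 32 of 56 were called higher and 4 lower (median 1.13), against 28.6% and 26.5% of all genes tested, led by Slc9a3r2 (6.14), Magi1 (5.81) and Lamb2, the laminin beta2 chain (4.77), with Ezr (-3.73) and Dpp4, a dipeptidyl peptidase (-1.60), at the low end. Col4a3 (0.92, adjusted p = 0.0326) and Col4a4 (0.87, 0.0416) were among those called higher in AS mice. Slc9a3r2 and Magi1 had the direction of the endothelial markers, whose medians were 3.63 in WT and 6.29 in AS mice. The part of endothelial cells in the values of the further podocyte genes was not tested.

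Across the 12 libraries, the 5 genes whose log2 CPM followed Nphs1 most closely included Tcf21, a podocyte transcription factor (Pearson's r = 0.923), Adcy1, an adenylyl cyclase (0.898), Wt1 (0.896) and Ntrk3, a neurotrophin receptor (0.886), out of 11839 genes with a mean log2 CPM above 1. These are descriptions over libraries that share groups and mice, not tests. Of the other members, Synpo stood at rank 21 (0.804), Npnt at rank 109 (0.679) and Ptpro at rank 171 (0.644). Clic3 (0.487), Thsd7a (0.417) and Cdkn1c (0.274) followed at ranks 1193, 1956 and 3345, and Podxl at rank 7613 with an r of -0.188. Once group means were removed, the median r of a gene with the other 8 members was between 0.284 for Podxl and 0.709 for Cdkn1c.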

How the data were processed

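RNA-seq was done on 12 libraries from 3 WT and 3 AS mice, a dim and a bright tdT library per mouse. Groups came from the sample labels. The authors trimmed the reads (cutadapt and Trimmomatic are named), used STAR 2.6.0c with GRCm38.p5 and Gencode M16 to align and count them, and deposited unnormalized read counts per gene in a table for each subpopulation, after a filter by hand whose rule is not given in the sources used here. The strand that was counted is not given there either. The tables also hold RPKM values, gene lengths and the authors' own fold changes, p-values and likelihood ratio statistics of AS over WT, which were not used. ERCC spike-ins (0.0286% to 0.282% of counts) were left out.

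Counts were tested with edgeR 4.0.16 in R 4.3.3, by glmQLFit and glmQLFTest after TMM scaling and filterByExpr. All genes tested entered the Benjamini-Hochberg adjustment. AS was compared with WT on the 6 libraries of each table, bright with dim on the 6 libraries of a genotype and the genes in both tables, and the difference of the AS effect on 12 libraries. The SE was the log2 fold change divided by the square root of the F statistic. CPM use 1 TMM scaling of the 12 libraries, and CPM per kb the union of exons in Gencode M21. Log2 CPM for the likeness to Nphs1 and for the share of genes whose mice did not overlap have a prior count of 2. The fits were run on simulated counts with the same dispersion for every gene and independent libraries. That run does not show how the fits perform at the spread between the mice here. Replicates of a group differed by a chi-square of 29.5 to 104 per degree of freedom over 12 pairs, so none was a repeat of another. Separate mice are the replicates. The main fits of bright over dim and of the difference of the AS effect left the mouse out. In these fits the dim and bright libraries of a mouse entered as independent, and the replicate block among the alternatives took the mouse into account.

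Dim and bright libraries were paired by the mouse number in the sample labels. Each library's deviation from its group mean was also correlated over genes. The mean r was 0.197 for libraries of the same WT mouse and 0.213 for those of the same AS mouse. For different mice it was -0.0985 and -0.104, values that centring on group means ties to the same-mouse means, so they are no separate check. In WT each same-mouse r (0.274, 0.216 and 0.102) lay above every different-mouse r. In AS this held for replicate 2 (0.385). AS-dim replicate 3 with AS-bright replicate 1 had 0.189, above the same-mouse r of replicates 1 (0.0796) and 3 (0.174). The pairing of the AS mice thus rests on the labels.

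Alternatives were RLE scaling, library sizes alone, every gene with a count, DESeq2 1.42.0, edgeR's likelihood ratio test, a replicate block, 1 fit of all 12 libraries and each library left out. The quasi-likelihood fit of edgeR version 3 was added after seeing the data. The 9 genes and all gene lists were chosen with earlier results of these data known. Besides the 9 genes, the text names Col4a5, Tek, Pecam1, Col4a3, Col4a4, the defining markers Pdgfrb, Ptprc, Lrp2 and Umod, the 3 highest and 3 lowest called genes of the further podocyte lists in each comparison, and the 5 genes most like Nphs1. Some genes that these rules pick are not reported here. For the symbol Itgam, which 2 gene IDs share in the dim table, the ID that Gencode names Itgam was used.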

Additional observations from a re-analysis of the deposited data

Results flagged for a closer look

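The AS effect differed between bright tdT GEC and dim tdT cells by the interaction test of edgeR's quasi-likelihood fit for 6 of the 9 podocyte genes, against 3.77% of all genes, and for 3 genes used as checks. Values are the AS effect in bright tdT GEC minus that in dim tdT cells, on the log2 scale. They were 3.48 for Nphs1 (adjusted p = 0.0129), 2.73 for Wt1 (0.00617), 2.15 for Podxl (0.00432), 2.13 for Synpo (0.0193), 1.95 for Npnt (0.0431) and 1.87 for Cdkn1c (0.0467). For the mutated gene Col4a5 the difference was 4.14 (adjusted p = 0.00515), and for the endothelial genes Tek and Pecam1 it was 2.96 (0.00432) and 1.64 (0.0498). The calls of Npnt, Cdkn1c and Pecam1 held in 5, 4 and 6 of 19 alternatives, and those of Npnt and Cdkn1c were lost with the mouse as a replicate block (adjusted p = 0.0552 and 0.0514). The differences of the podocyte genes and of the endothelial genes had the same direction in the same libraries, and the part of the endothelial genes in those of the podocyte genes was not tested.

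Groups here have 3 libraries, so no test for a single outlying library within a group was made.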

How the results depend on the processing

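For the 9 podocyte genes, fold changes kept their direction and their side of the threshold in 100 of 126 alternatives for AS over WT in dim tdT cells, 109 of 126 in bright tdT GEC, 117 of 126 for bright over dim in WT mice, 120 of 126 in AS mice and 136 of 171 for the difference of the AS effect. The 4 podocyte genes called in dim tdT cells were 7 with DESeq2 and 0 to 6 over the fits without 1 library. The 0 in bright tdT GEC were 3 with DESeq2, 3 with the likelihood ratio test and 0 to 1 without 1 library, and the 6 for the difference of the AS effect were 3 to 6. The genes called bright over dim stayed within 1.5 times of 5 in WT and of 6 in AS mice in every alternative run.

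Over all genes, the 1263 called in dim tdT cells were 2213 with DESeq2, 1946 with the likelihood ratio test, 2106 with 12 libraries in 1 fit, 582 with the edgeR version 3 fit, which was chosen after seeing the data, and 0 to 1825 without 1 library, where the 0 is without AS-dim replicate 1. The 65 called in bright tdT GEC were 1117, 827, 139 and 0 in the same order, 39 with every gene kept and 0 to 281 without 1 library. The 569 for the difference of the AS effect were 1186 with DESeq2, 1114 with the likelihood ratio test and 252 to 857 without 1 library. The cause of these changes was not tested, beyond fewer libraries where 1 was left out.

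The sign turned only for values that did not pass. Without 1 library, Ptpro in dim tdT cells ran from -0.11 to 0.34, Clic3, Npnt and Thsd7a in bright tdT GEC from -0.50 to 0.18, from -0.27 to 0.47 and from -0.35 to 0.26, and Cdkn1c for bright over dim in WT mice from -0.12 to 0.32. Thsd7a in bright tdT GEC was 0.0071 with every gene kept and 0.059 with 12 libraries in 1 fit.

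With the replicate block, AS and WT replicates share only a number and come from different mice. The block left 2 podocyte genes called in dim tdT cells, and over all genes 494 in dim tdT cells and 16 in bright tdT GEC. For the difference of the AS effect the block was the mouse and gave 877 genes, with Npnt and Cdkn1c lost (adjusted p = 0.0552 and 0.0514). For bright over dim the mouse as a block changed no call of a podocyte gene.

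The lowest counts were those of Clic3, and 3 mice per genotype limit the precision of all values.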
